A study of Mus musculus with 47 samples.

Results

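Imprinted genes were followed by parental allele in 47 single iPSCs. The members were a list of 47 textbook imprinted genes of the mouse, and 32 of them had a row among the 13947 genes of the allelic count table. The other 15 (Ndn, Magel2, Igf2, Cdkn1c, Phlda2, Ascl2, Meg3, Mirg, Rtl1, Mest, Nap1l5, Zrsr1, Nnat, Blcap and Mcts2) were not analysed here. The 47 cells form 1 group. They are iPSCs, cells returned to pluripotency from embryonic fibroblasts by lentiviral overexpression of OSKM (Oct4, Sox2, Klf4 and c-Myc), grown with serum and LIF. Ascorbic acid is in the medium by the labels and by the general culture methods, whereas the methods describe later passages of iPSC controls without it. The Mus X of the cross carried an eGFP transgene, which cells without that X lack. The mother was Mus and the father Cast, so in every cell a Mus read is a maternal read and a Cast read a paternal one. By the class that the table gives each cell, 23 cells held both X chromosomes (X-Mus X-Cast), 15 had lost the Mus X (X-Cast O-Mus) and 9 had lost the Cast X (X-Mus O-Cast). The labels name no separate cultures, lines or donors, so the cells are treated as 1 sample, no test was run between classes, and every interval below is an exact 95% Clopper-Pearson interval that covers counting error only. Where a count is 0, the upper limit given is not from such an interval but from 3 counts of the total. Reads carry no molecular identifiers, and a read over several SNPs may count more than 1 time.

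Genomic imprinting restricts transcription of a gene to the copy from the mother or to the copy from the father. For many imprinted genes, though not all, the choice rests on DNA methylation that is laid down in the germline at imprinting control regions. It is kept through the divisions of the embryo, and genes under the same control region form clusters. Some imprinted genes, such as Peg3, Snrpn and Impact, are known for the restriction in most tissues (broadly imprinted), whereas others show it in a tissue such as placenta, brain or heart (tissue-limited). Reprogramming to pluripotency can erase or alter imprints, so the parental copy that is transcribed is a common measure of imprint state in iPSCs.

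The starts of 4 genes under germline control regions and of 1 tissue-limited gene are shown, since their reads fell on different alleles. For each, the 250 bases before the RefSeq start are given 5′ to 3′ on the strand of the gene (build GRCm38.p6), with CpG dinucleotides, the sites of DNA methylation, in capitals. The windows are chr7:6730420-6730669 on the minus strand (Peg3), chr7:60005200-60005449 on the minus strand (Snurf, which shares this start with Snrpn), chr7:143296548-143296797 on the minus strand (Kcnq1ot1), chr10:13090582-13090831 on the plus strand (Plagl1) and chr7:143052500-143052749 on the plus strand (Cd81).
Peg3: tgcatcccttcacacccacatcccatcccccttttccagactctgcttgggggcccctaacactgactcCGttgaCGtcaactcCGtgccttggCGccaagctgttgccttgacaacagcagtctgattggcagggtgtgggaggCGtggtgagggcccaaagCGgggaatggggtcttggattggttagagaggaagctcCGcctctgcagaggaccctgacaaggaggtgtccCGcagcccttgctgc
Snurf: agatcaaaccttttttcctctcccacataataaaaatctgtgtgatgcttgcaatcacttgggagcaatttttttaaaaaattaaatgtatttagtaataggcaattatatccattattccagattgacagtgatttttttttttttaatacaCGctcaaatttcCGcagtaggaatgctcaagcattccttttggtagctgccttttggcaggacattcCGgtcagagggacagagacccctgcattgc
Kcnq1ot1: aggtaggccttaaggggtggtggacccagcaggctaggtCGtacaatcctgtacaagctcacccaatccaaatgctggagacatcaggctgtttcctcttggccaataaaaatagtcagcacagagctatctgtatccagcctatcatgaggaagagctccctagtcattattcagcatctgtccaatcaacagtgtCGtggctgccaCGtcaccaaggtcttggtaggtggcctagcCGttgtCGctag
Plagl1: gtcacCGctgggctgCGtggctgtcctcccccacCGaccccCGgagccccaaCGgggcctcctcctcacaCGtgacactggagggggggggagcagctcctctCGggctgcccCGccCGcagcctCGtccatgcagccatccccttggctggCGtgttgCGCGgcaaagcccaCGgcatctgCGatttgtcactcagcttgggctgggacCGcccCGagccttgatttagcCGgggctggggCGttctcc
Cd81: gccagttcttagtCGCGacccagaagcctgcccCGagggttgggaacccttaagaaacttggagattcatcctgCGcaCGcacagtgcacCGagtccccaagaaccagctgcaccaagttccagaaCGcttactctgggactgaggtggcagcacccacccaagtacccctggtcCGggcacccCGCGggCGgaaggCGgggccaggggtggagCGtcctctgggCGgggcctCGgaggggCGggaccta
The windows hold 8 CpG (Peg3), 3 (Snurf), 5 (Kcnq1ot1), 19 (Plagl1) and 16 (Cd81), beside a median of 6 over all 32851 RefSeq windows of this length. The hexamer TGCCGC (searched on both strands), the motif of the imprint keeper ZFP57, was in the Plagl1 window and in none of the other 4, and in 8.68% of all windows. RefSeq gave 42 windows for 26 of the 32 members, and 5 of the 42 (those of Copg2, Dhcr7, Plagl1, Zdbf2 and Zim1) held the hexamer, 11.9% beside the 8.68% of all windows. The Peg3 and Usp29 starts lie 164 bases apart on opposite strands. No methylation was measured in these counts. The windows hold only bases before the start, so their CpG and hexamers do not describe whole control regions.

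Depth was 71682 to 216451 allelic counts per cell, and the members held 0.154% of all allelic reads. All 11 pluripotency markers had reads, each in 33 to 47 cells, with 168 to 2024 summed reads per cell. Of the fibroblast list, 7 of 8 genes had a row and 4 had reads (16 to 384 summed reads per cell). Col1a2, Prrx1 and Dcn were at 0, and Fn1 held 4853 reads over 47 cells, beside 13 reads of Col1a1. The direction of the cross was read from the mitochondria, which come from the mother, with 1619964 of 1620088 mitochondrial reads from Mus. In cells with a single X, reads of the absent X made up 0.329% of X-linked reads where the Mus X was lost and 1.20% where the Cast X was lost. Autosomal genes together were read at 42.9% from Mus, with chromosomes between 31.8% (chromosome 1) and 50.2% (chromosome 10), so each member was set beside the share of the other genes of its own chromosome. The X-Cast O-Mus cell B04 (cells are named by plate well) stood apart on chromosome 12, with 7.18% Mus against a median of 40.03% over cells, and shares that moved beyond their counting interval without it are also given without it.

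Of the 32 members, 25 had at least 20 reads summed over the cells. With these, 1 member was read almost only from 1 allele (a Mus share of at most 5% or at least 95%), beside 8.28% of the 9273 autosomal genes with as many reads (5.94% at most 5% and 2.34% at least 95%). It was Peg3, read from Cast. A further 10 of the 25 were skewed (above 5% and at most 20%, or at least 80% and below 95%), beside 14.1% of autosomal genes, and 14 were read from both alleles (between 20% and 80%), beside 77.6% of autosomal genes. Of the 24 members with a single predicted allele, 16 lay on the side of their chromosome that the cross predicts and 8 on the other side. By parent, these were 11 of 14 paternally expressed members, predicted below their chromosome, and 5 of 10 maternally expressed members, predicted above it. Of all autosomal genes, 46.4% lay below their chromosome. Of the 9 broadly imprinted, paternally expressed members, 8 lay on the predicted Cast side and 7 had a Mus share of at most 20%, beside 16.1% of autosomal genes, with a median Mus share of 14.1%. At a Mus share of at least 80% lay 2 of the 25 members, H19 and Sfmbt2, beside 6.27% of autosomal genes. The 3 broadly imprinted, maternally expressed members had a median of 71.9%, with 2 on the predicted Mus side. The 13 tissue-limited members had a median of 41.7%, with 6 on the predicted side and 6 on the other. In the order of pooled shares, intervals of neighbours overlapped for all pairs except Cd81 with Gab1 and Gab1 with Grb10.

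**Figure D1:**
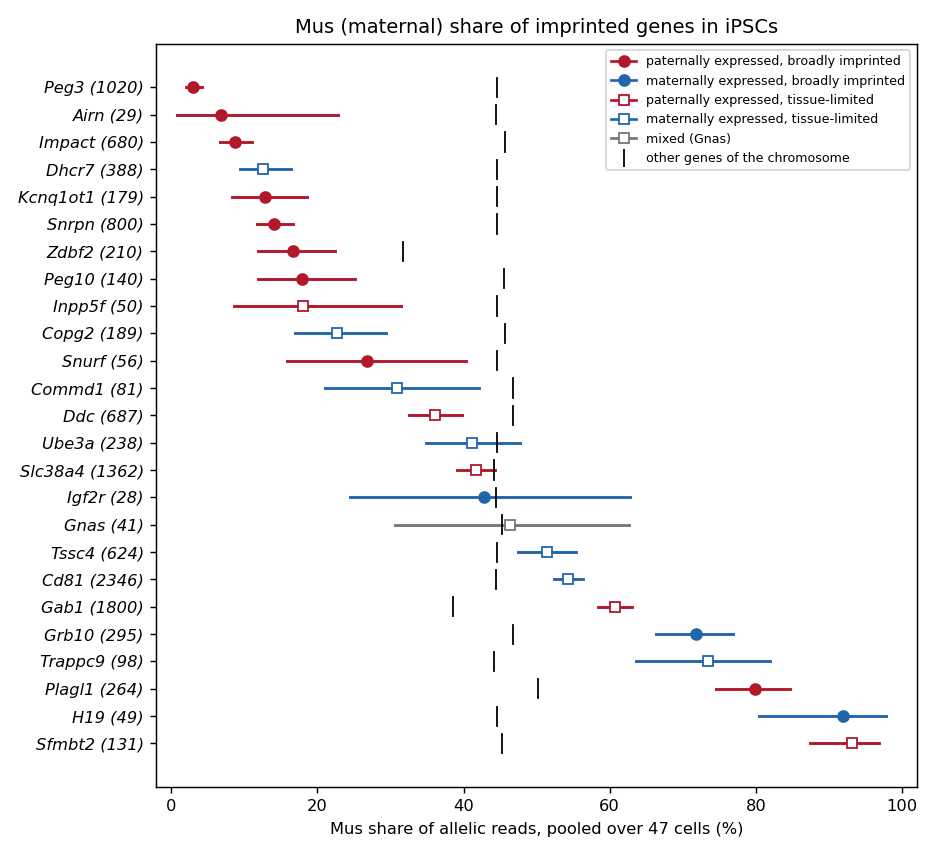
Pooled Mus share (%) of the 25 members with at least 20 reads, with the number of reads in parentheses and 95% Clopper-Pearson intervals as lines; black ticks mark the other genes of the same chromosome. Filled red points (paternally expressed, broadly imprinted) lie left of their ticks except Plagl1 at 79.9%, while open squares (tissue-limited) lie on both sides.

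Peg3, a zinc finger gene that names the cluster on proximal chromosome 7 (chr7:6703892-6730431), had the lowest Mus share of the 25 members with at least 20 reads. It held 990 Cast and 30 Mus reads, a share of 2.94% (interval 1.99 to 4.17%) against 44.6% for the chromosome. Its share per cell was lowest at 0%, with a median of 0% and a highest value of 61.4%, over 21 cells with at least 10 reads of the gene. Of these cells, 18 had no Mus read and 20 had more than 90% Cast. The exception was cell B02, an X-Mus X-Cast cell with 17 Cast and 27 Mus reads, so that 27 of the 30 Mus reads of Peg3 were in 1 cell, and without it the pooled share was 0.307%. Its neighbours had few reads, Zim1 (maternally expressed) with 11 Cast and 0 Mus reads and Usp29 with 6 Cast and 0 Mus reads.

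Snrpn encodes a spliceosomal protein and, with Snurf, starts at the control region of the Prader-Willi and Angelman cluster (chr7:59982495-60140219). Snrpn had 687 Cast and 113 Mus reads, a Mus share of 14.1% (interval 11.8 to 16.7%). The Mus reads lay in few cells. Of 36 cells with at least 10 reads, 29 had no Mus read, and 6 had both alleles. Those 6 were A02 with 14 Cast and 23 Mus reads of Snrpn, B03 with 7 and 24, B04 with 8 and 25, C03 with 9 and 3, F05 with 13 and 16, and G05 with 23 and 21. In 3 of the 6 the Mus share lay between 30% and 70%, and in B03 and B04 Mus was the major allele at 77.4% and 75.8%. Without cell B04 the pooled share of Snrpn was 11.5%. Snurf, the upstream reading frame, had 41 Cast and 15 Mus reads (26.8%), and all 15 Mus reads were in cell F05, where Snrpn also had both alleles. Without that cell, Snurf had 0 Mus reads, so its call as read from both alleles rests on 1 cell. The 2 genes overlap on the same strand, so their reads may not be separate. Ube3a, a ubiquitin ligase of the same cluster that is maternally expressed in neurons, had 140 Cast and 98 Mus reads (41.2%, interval 34.9 to 47.7%), and its interval held the 44.5% of the chromosome. It overlaps Snhg14 on the other strand, and the strand of the counting is not given, so reads of the 2 could not be told apart.

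Impact, a regulator of translation on chromosome 18, had 621 Cast and 59 Mus reads, a Mus share of 8.68% (interval 6.67 to 11.1%). Here the Mus reads were spread over more cells than for Peg3. Of 21 cells with at least 10 reads, 12 had no Mus read, 14 had more than 90% Cast and 7 had both alleles, and the share per cell ranged from 0% to 66.7% with a median of 0%. Cell C04 had 50 Cast and 15 Mus reads of Impact, B03 had 14 and 7, and B04 had 5 and 10. A Mus share of Impact between 30% and 70% was found in 2 of the 21 cells, and without cell B04 its pooled share was 7.37%.

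Kcnq1ot1, the long noncoding RNA that silences the paternal Kcnq1 cluster (chr7:143203458-143296549), had 156 Cast and 23 Mus reads (12.8%, interval 8.32 to 18.7%). Cell H01 held 16 of its Mus reads beside 5 Cast reads, the other 5 cells with at least 10 reads had no Mus read, and without H01 the share was 4.43%. Airn, the noncoding RNA that silences the paternal Igf2r, had 27 Cast and 2 Mus reads (6.90%, interval 0.846 to 22.8%). Both Mus reads of Airn were in the same cell H01, without which its share was 0%, and it was 15.4% without the cell with most of its reads. Each overlaps a gene on the other strand, Kcnq1 and Igf2r. Igf2r, the receptor that clears insulin-like growth factor 2, had 16 Cast and 12 Mus reads (42.9%, interval 24.5 to 62.8%), too few to place it on either side of the 44.5% of the chromosome, and it lay at 54.5% without the cell with most of its reads. In X-Mus X-Cast cells 12 of its 16 reads were from Mus, and in cells with a single X 0 of 12 were.

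Peg10, a gene derived from a retrotransposon (chr6:4747306-4760517), had 115 Cast and 25 Mus reads (17.9%, interval 11.9 to 25.2%). Of its 5 cells with at least 10 reads, 3 had no Mus read, B02 had 12 Cast and 5 Mus reads and B03 had 8 and 14, and without B03 the share was 9.32%. Sgce, its divergent neighbour, had 16 Cast and 0 Mus reads. Zdbf2, a paternally expressed gene on chromosome 1 (chr1:63273265-63314576), had 175 Cast and 35 Mus reads (16.7%, interval 11.9 to 22.4%), against 31.8% for the chromosome. In 4 cells chromosome 1 was read at 43.96 to 47.75% from Mus, and in the other 43 cells at 27.6 to 34.9%. The Mus share of Zdbf2 was 37.5% (16 reads, interval 15.2 to 64.6%) in the former and 15.0% (194 reads, interval 10.3 to 20.8%) in the latter. Inpp5f, a phosphatase with a paternal transcript in brain, had 41 Cast and 9 Mus reads (18.0%, interval 8.58 to 31.4%), and 10.3% without cell A04, which held 5 of the 9 Mus reads. Peg13 had 17 Cast and 0 Mus reads in 1 cell, Dlk1 had 4 Cast and 0 Mus reads, and Rasgrf1 had 2 Cast and 0 Mus reads.

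Plagl1, a zinc finger transcription factor (chr10:13060504-13131694), was the broadly imprinted, paternally expressed member that went the other way. It had 53 Cast and 211 Mus reads, a Mus share of 79.9% (interval 74.6 to 84.6%) against 50.1% for the chromosome. The share per cell was lowest at 44.8%, with a median of 82.6% and a highest value of 100%, over 7 cells. Cell C03 alone held 7 Cast and 83 Mus reads, and without it the pooled share was 73.6%. In cell D03 the split was 16 Cast and 13 Mus reads, and in G04 it was 9 and 9. All 7 cells lay above 40% Mus.

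**Figure D2:**
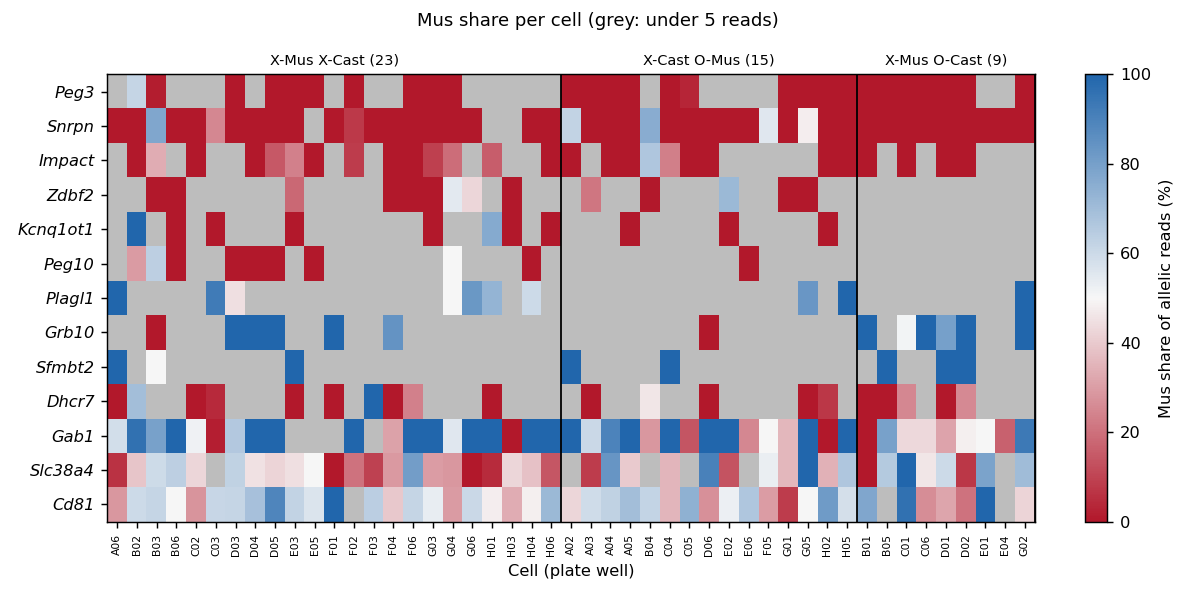
Mus share (%) per cell (columns, plate wells, grouped by X class) for 13 members (rows), with red for Cast, blue for Mus and grey for under 5 reads. Peg3 and Snrpn are red in most cells and pale or blue in a few, Plagl1 and Sfmbt2 are blue or intermediate, and Cd81 is mostly intermediate.

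Of the maternally expressed, broadly imprinted members, Grb10 had 295 reads, and H19, Igf2r and Rian had 15 to 49 each. H19, the noncoding RNA next to Igf2 (chr7:142575529-142578143), had 4 Cast and 45 Mus reads (91.8%, interval 80.4 to 97.7%) in 6 cells. Of these, 5 had Mus reads alone, between 3 and 13, and cell A05 had the 4 Cast reads alone. Rian, a noncoding RNA of the Dlk1-Dio3 cluster, had 15 Mus and 0 Cast reads in 4 cells, and 0 of 15 reads allows a Cast share of up to 20.0%. Grb10, an adaptor that restrains growth (chr11:11930508-12038683), had 83 Cast and 212 Mus reads (71.9%, interval 66.4 to 76.9%) against 46.7% for the chromosome. Of its 7 cells with at least 10 reads, 4 had no Cast read, F04 had 4 Cast and 21 Mus reads, D01 had 2 and 8, and C01 had 59 and 61. Without cell C01 the Mus share of Grb10 was 86.3%.

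Of the 13 tissue-limited members, 10 were read from both alleles, a share near the 77.6% of autosomal genes. Cd81, a tetraspanin that is maternally expressed in placenta, had 1071 Cast and 1275 Mus reads (54.3%, interval 52.3 to 56.4%), and 39 of its 43 cells had both alleles, with a median share of 59.1%. Tssc4, its neighbour, had 303 Cast and 321 Mus reads (51.4%, interval 47.4 to 55.4%). By class, Tssc4 was at 53.8% (interval 48.1 to 59.5%) where both X chromosomes were present, at 67.7% (interval 60.6 to 74.3%) where the Mus X was lost and at 20.3% (interval 13.6 to 28.5%) where the Cast X was lost. In the last class 37 of its 123 reads were Cast reads of cell B01, without which the share was 29.1%. Slc38a4, an amino acid transporter that is paternally expressed in placenta, had 794 of its 1362 reads from Cast, a Mus share of 41.7% (interval 39.1 to 44.4%). Its interval held the 44.1% of the chromosome, and 27 of 36 cells had both alleles. Ddc, which makes dopamine and serotonin and is paternally expressed in heart, had 439 Cast and 248 Mus reads (36.1%, interval 32.5 to 39.8%) against 46.8% for the chromosome, with 18 of 28 cells with both alleles. Gnas, with transcripts of either parent, had 22 Cast and 19 Mus reads (46.3%), and 17 of the Mus reads were in cell H05, without which its share was 8.33%.

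Other tissue-limited members lay farther from their chromosome, on either side. Dhcr7, the last enzyme of cholesterol synthesis, maternally expressed in placenta, had 339 Cast and 49 Mus reads (12.6%, interval 9.49 to 16.4%), away from the predicted allele, with 8 of 12 cells above 90% Cast. Copg2, a coat protein that overlaps Mest on the other strand, had 146 Cast and 43 Mus reads (22.8%, interval 16.98 to 29.4%), and Commd1, which overlaps Zrsr1, had 56 Cast and 25 Mus reads (30.9%, interval 21.1 to 42.1%). Both lay away from the predicted Mus allele, and reads of the overlapping genes, which are paternally expressed, could not be told apart from theirs. Cell B04 held 17 of the Mus reads of Commd1, and without it the share was 12.5%. Trappc9, which holds Peg13 in an intron and is maternally expressed in brain, had 26 Cast and 72 Mus reads (73.5%, interval 63.6 to 81.9%). Sfmbt2, a Polycomb gene that is paternally expressed in the placental lineage, had 9 Cast and 122 Mus reads (93.1%, interval 87.4 to 96.8%). In 5 of its 6 cells with at least 10 reads there was no Cast read, and cell B03 had 8 Cast and 8 Mus reads. The trophoblast markers Cdx2 and Elf5 were at 0 and Eomes had 34 reads and Krt8 19 reads, each in 4 cells, so that 8 cells had a read of the list.

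Gab1, a signalling adaptor that is paternally expressed in placenta, was read mostly from Mus in some cells and from both alleles in others. It had 707 Cast and 1093 Mus reads (60.7%, interval 58.4 to 62.99%) against 38.6% for chromosome 8. Of 41 cells, 20 had both alleles, 18 had more than 90% Mus and 3 had more than 90% Cast, at 12 to 116 reads per cell. The cells above 90% Cast were B01 with 42 Cast and 0 Mus reads of Gab1, C03 with 51 and 1, and H02 with 20 and 0. Among X-Mus X-Cast cells the pooled Mus share of Gab1 was 73.0%, with an interval of 69.4 to 76.5%. It was 60.5% among cells that had lost the Mus X (interval 56.6 to 64.3%), and there 64.5% without cell B04 and 53.3% without cell H05. Among cells that had lost the Cast X it was 46.4% (interval 42.04 to 50.7%). The share per cell of Gab1 spanned 0% to 100% over all cells, and the groups were not compared by a test.

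**Figure D3:**
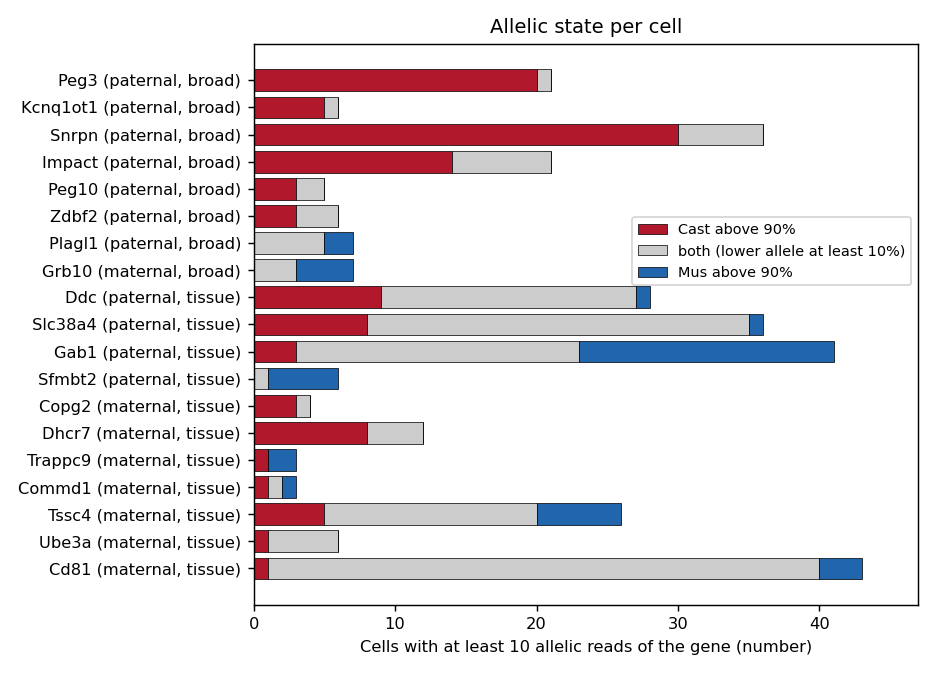
Number of cells with at least 10 reads of a gene, split into more than 90% Cast (red), both alleles (grey) and more than 90% Mus (blue), for members with 3 or more such cells. Peg3 had 20 of 21 cells in red, Cd81 had 39 of 43 in grey and Gab1 had 18 of 41 in blue.

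A single-cell count of both alleles also depends on depth, so cells were compared with autosomal genes at like depth. A pair of a cell and a gene with at least 10 reads was counted as both alleles where the lower allele held at least 10%. Over all members, 160 of 325 pairs (49.2%) had both alleles, beside 64.3% of the 121847 autosomal pairs. For the broadly imprinted, paternally expressed members it was 25 of 105 pairs (23.8%, interval 16.04 to 33.1%), with 77 pairs above 90% Cast and 3 above 90% Mus. Autosomal genes had 22.8% of pairs above 90% Cast and 12.9% above 90% Mus. For the tissue-limited members it was 132 of 211 pairs (62.6%, interval 55.7 to 69.1%). At 10 to 19 reads in the cell, both alleles were read in 51.0% of autosomal pairs, 44.7% of tissue-limited pairs and 16.7% of broadly imprinted paternal pairs. At 20 to 49 reads these shares were 66.8%, 66.0% and 34.8%, and at 50 reads or more they were 82.5%, 87.8% and 9.09%, the last as 1 of 11 pairs. Pairs share cells and genes, so these are descriptions.

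**Figure D4:**
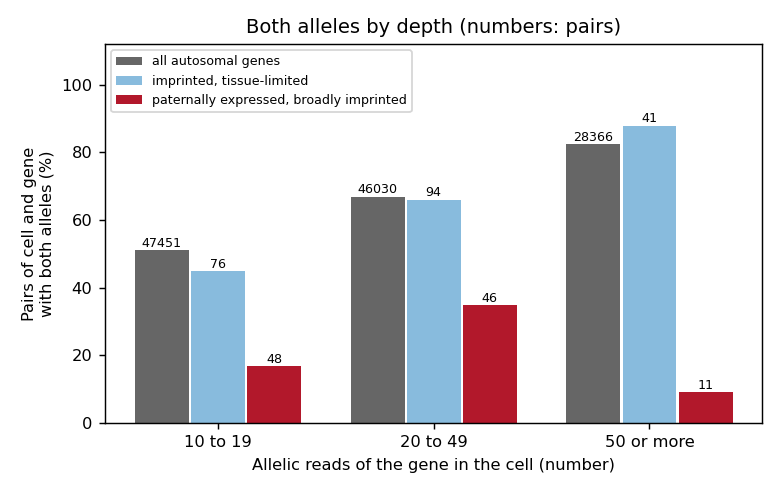
Share of cell and gene pairs (%) with both alleles by the number of reads of the gene in the cell, with the number of pairs above each bar. Grey and blue bars rise with depth to 82.5% and 87.8%, while red bars (paternally expressed, broadly imprinted) stay at or below 34.8%.

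Cells with Mus reads of these members differed from locus to locus. Among the 43 cells with at least 10 reads of a broadly imprinted, paternally expressed member, 15 had at least 1 such member with both alleles, 8 of them 1 member and 7 of them 2 or 3. The cells with 3 were B03 (Snrpn, Peg10 and Impact), G04 (Plagl1, Impact and Zdbf2) and H01 (Kcnq1ot1, Plagl1 and Impact). In 20 of the 47 cells no Mus read of any of the 12 members was present. Peg3 and Snrpn could be read together in 18 cells. In 14 of these both genes were above 90% Cast, in 3 (A02, B03 and G05) Snrpn alone had both alleles, in 1 (B02) Peg3 alone had both alleles, and in 0 both genes did. In cell B03, Peg3 had 77 Cast and 1 Mus reads while Snrpn had 7 and 24. Snrpn and Impact could be read together in 18 cells, of which 11 had Cast alone above 90% for both, 2 had both alleles for both, 4 for Impact alone and 1 for Snrpn alone.

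Across X classes, the Mus share of the broadly imprinted, paternally expressed members was 19.4% of 1560 reads where both X chromosomes were present (interval 17.5 to 21.5%), 16.5% of 1214 reads where the Mus X was lost (interval 14.4 to 18.7%) and 1.56% of 641 reads where the Cast X was lost (interval 0.751 to 2.85%). Peg3 held 248, 381 and 391 of these reads in that order, so the mix of members differed between classes. Plagl1 held 149 of the 303 Mus reads of the first class, and without it the shares were 11.2% (interval 9.62 to 13.03%), 12.7% (interval 10.8 to 14.8%) and 0.316% (interval 0.0383 to 1.14%). Without cell B04 the share of the X-Cast O-Mus class was 14.2%, with both alleles in 6 of 34 pairs, and without both Plagl1 and B04 it was 10.2% (interval 8.43 to 12.1%). The order of the first pair of classes thus turned without Plagl1 and turned back without B04. With Plagl1 and all cells kept, both alleles of these members were read in 17 of 56 pairs, 8 of 36 pairs and 0 of 13 pairs, beside 67.3%, 61.4% and 61.6% of autosomal pairs. The 10 Mus reads in the 9 X-Mus O-Cast cells were 8 of Plagl1, all in cell G02, and 2 of Kcnq1ot1. Without the cell with most Mus reads of these members in each class (C03, G05 and G02), the shares were 15.1%, 13.3% and 0.353% (interval 0.0428 to 1.27%), so that the share of the X-Mus O-Cast class rests on 1 cell. In these 9 cells Peg3 had 0 of 391 reads from Mus, which allows a share of up to 0.767%, Snrpn 0 of 165, which allows up to 1.82%, and Impact 0 of 57, which allows up to 5.26%. Snrpn was at 24.9% Mus in the X-Cast O-Mus class (interval 20.4 to 29.9%) and at 9.52% in the X-Mus X-Cast class (interval 6.42 to 13.5%), and Peg3 was at 0.525% and 11.3%. These shares rest on few cells. Without cell B03, which held 24 of the 28 Mus reads, Snrpn was at 1.52% in the X-Mus X-Cast class, and without B04 it was at 19.5% in the X-Cast O-Mus class. Without cell B02, Peg3 was at 0.490% in the X-Mus X-Cast class. No test between classes was run.

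Levels, in allelic reads per 100000 of the cell, also varied by class, with overlapping ranges. In the order X-Mus X-Cast, then X-Cast O-Mus, then X-Mus O-Cast, the pooled level of Peg3 was 6.596, 15.2 and 26.98, and its median over cells was 2.32, 10.4 and 18.96, with a lowest value of 0 in each class and highest values of 40.3, 40.3 and 68.5. Impact had the opposite order, with medians of 7.70, 5.72 and 2.01. Of the 140 Peg10 reads, 124 were in X-Mus X-Cast cells. H19 was read in 4 of the 15 cells without the Mus X, in 2 of the 9 without the Cast X and in 0 of the 23 with both, where 0 reads allow a pooled level of up to 0.0798 per 100000. Gab1 had medians of 15.2, 21.8 and 31.01.

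**Figure D5:**
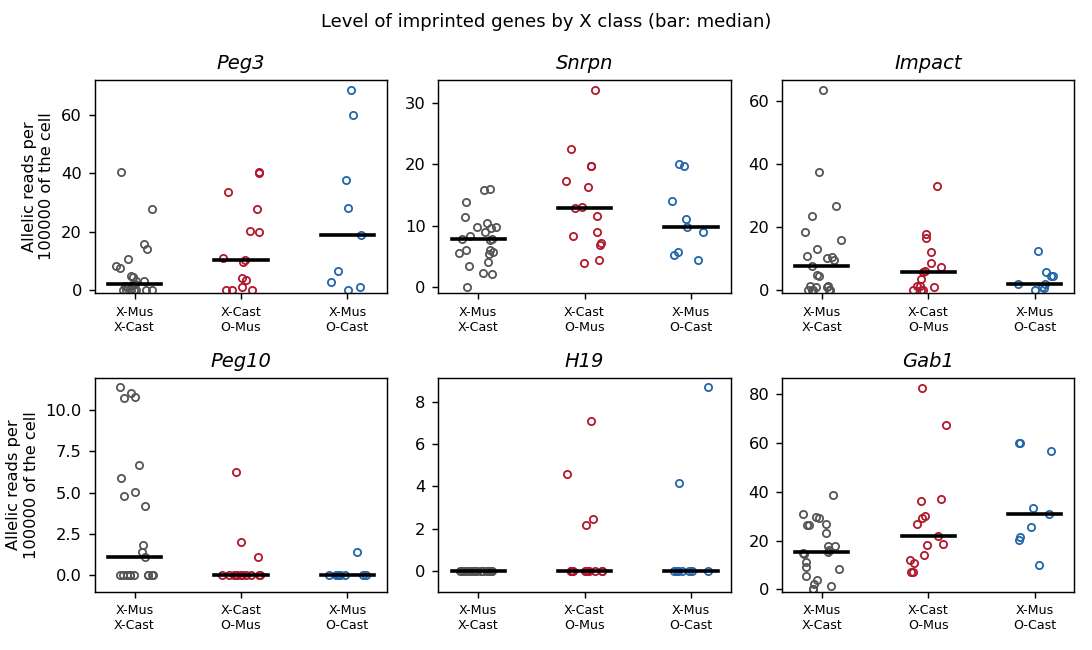
Allelic reads per 100000 of the cell for 6 members by X class, 1 point per cell with the median as a bar. Ranges overlap between classes, Peg10 points above 0 are mostly X-Mus X-Cast cells, and all H19 points of that class are at 0.

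Of 31 further imprinted genes, 25 had a row and 14 had at least 20 reads. On the side that the cross predicts lay 7 of the 14, and 7 lay on the other, beside 46.4% of all autosomal genes below their chromosome. A single one of the 14 passed the limit for 1 allele, beside 8.28% of autosomal genes. It was Slc22a3, a transporter that is maternally expressed in placenta, with 22 Cast and 0 Mus reads in 8 cells, which allows a Mus share of up to 13.6%. Peg12 of the Snrpn cluster, also listed as broadly imprinted and paternally expressed, had 30 Cast and 28 Mus reads in 14 cells. Its Mus share was 48.3% (interval 34.95 to 61.8%), away from the predicted Cast side, and its interval held the 44.55% of the chromosome. Among 7 genes that keep imprints, 4 had a row. Dppa3, which protects methylation in the early embryo, had pooled levels of 63.3, 122 and 119.9 in the same order of classes, with ranges from 0 to 302, from 0 to 711 and from 16.7 to 280.0. Without cell C04 the Dppa3 level of the X-Cast O-Mus class was 71.7. The level of Uhrf1, a partner of the maintenance methylase, was 21.1, 23.1 and 26.9, that of the methylase Dnmt1 was 4.26, 5.81 and 5.31, and that of Setdb1, a histone methylase, was 3.72, 3.54 and 6.21, with medians over cells of 2.38, 3.31 and 2.01. Of the 90 Setdb1 reads of the last class, 53 were in cell E04, without which its pooled level was 2.69.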

How the data were processed

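Cells were sorted into a GpC methylase mix, mRNA was captured following G&T-seq, and Nextera XT libraries were sequenced. The authors deposited raw counts per gene, allele and cell, not normalized, with the X class in the column names. The submitters' processing notes name STAR 2.5.3a, SAMtools and mm10. The methods mask SNPs for related libraries and keep genes with at least 4 SNPs. The strand of the counting is not given in the sources used here. From these counts, Mus shares were pooled over cells and set beside the other genes of the chromosome (GENCODE M21), with Clopper-Pearson intervals (scipy 1.17.1). Every member with at least 20 pooled reads was named with its values, and the others with read counts and, for Rian, the upper limit that a count of 0 allows. Limits were 5% and 95% pooled, and at least 10 reads with 10% of the lower allele per cell. Members and lists were chosen with earlier results of these data known, and parental origins are textbook assignments. The pooled call rule was run on simulated counts. These were drawn at fixed Mus shares without bursts or repeated reads, so they do not test the calls in real cells. Depth was 71682 to 216451 counts per cell. Alternatives varied minimum reads, limits, pooling and cells.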

Additional observations from a re-analysis of the deposited data

How the results depend on the processing

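The count of members read almost only from 1 allele rested on the minimum and the limits. With the share of autosomal genes called at the same setting in parentheses, it was 1 of 25 as reported (8.28%), 5 of 29 with a minimum of 10 pooled reads, adding Zim1, Rian, Sgce and Peg13 (11.9%), 8 of 32 with no minimum beyond 1 read (20.2%), 5 of 25 with limits of 10% and 90% (12.2%), 0 of 25 with limits of 1% and 99% (5.76%), 4 of 25 by the mean of the share per cell (12.8%), 2 of 24 without the cell with most reads of the gene (6.52%), 3 of 22 in cells with a single X (10.2%) and, chosen after seeing the data, 4 of 25 without the cell with most Mus reads (11.7%). The count of members on the predicted side, 16 of 24 as reported, was 9 of 15 when members that overlap another gene of the table were left out (an alternative chosen after seeing the data). The count of members read from both alleles, 14 of 25 as reported (77.6%), was 9 of 17 with a minimum of 100 pooled reads (85.2%), 9 of 24 without the cell with most reads of the gene (80.9%), 9 of 25 without that with most Mus reads (72.4%), 9 of 19 in X-Mus X-Cast cells (76.5%) and 8 of 16 without overlapping members (77.1%). By odds relative to the chromosome it rose to 17 of 25, with Zdbf2 (30.05%), Peg10 (20.6%) and Inpp5f (21.5%) now above 20%. The share of autosomal genes was not computed for that setting. The share of cell and gene pairs with both alleles, 49.2% as reported (64.3% of autosomal pairs), was 41.1% with a minimum of 5 reads in the cell (56.5%), 60.0% with 20 (72.8%), 42.5% where the lower allele had to hold 20% (52.3%), and, in alternatives also chosen after seeing the data, 24.6% for broadly imprinted and 62.6% for tissue-limited members. Of the 25 members, 21 kept their side of the chromosome under all alternatives of the pooled share. Ube3a changed side by the mean of the share per cell (46.8%), Igf2r without its top cell (54.5%) and in X-Mus X-Cast cells (12 of 16 reads), Gnas without its top cell, which is also that with most Mus reads (8.33%), by the mean per cell (33.3%) and in X-Mus X-Cast cells (0%), and Slc38a4 in cells with a single X (47.8%). Of 334 alternatives of single shares, 224 stayed within the counting interval. No paired analysis was possible because the cells form 1 group. Depth limits the 7 members under 20 reads and most cells of the others.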
